A study of Mus musculus with 4 samples.

Results

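Almost all proteins of the mitochondrion are made in the cytosol and carried across its membranes by a set of dedicated machines. The TOM complex is the entry gate of the outer membrane, the SAM complex inserts barrel-shaped proteins there, the MIA relay and the small TIM chaperones serve the space between the membranes, and the TIM22 and TIM23 translocases serve the inner membrane. Transport through TIM22 and TIM23 needs the membrane potential, which the respiratory chain builds up, and a motor on the matrix side pulls the chain in before the matrix processing peptidase removes its targeting signal. The Rieske protein encoded by Uqcrfs1 is itself imported in this way before it is inserted into respiratory complex III.

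The genes described here are the 34 genes of the authors' deposited comparison whose symbol starts with Timm or Tomm or is Pam16, Dnajc15, Dnajc19, Grpel1, Grpel2, Samm50, Mtx1, Mtx2, Pmpca, Pmpcb, Chchd4 or Gfer. That table holds 11536 genes of the 43430 in the count table. Its genes are those with at least 1 CPM (counts scaled to a library total of 1e6 counts in genes) in at least 2 libraries, so genes below that level are not among the 34. All 34 also had enough counts for the test used here, which covered 13281 genes.

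The libraries come from CD4+CD8+ double-positive (DP) thymocytes, a stage of T cell development, sorted from the thymus of C57BL/6 mice to a stated purity above 98%. The knockout (KO) group is 2 mice with the genotype Uqcrfs1fl/fl; CD4-Cre+, in which Cre is driven by Cd4 regulatory sequences, active in DP thymocytes. The control group is 2 mice labelled WT, which the series text describes as heterozygous littermates. "WT" is used only as the label of that group. The age of the mice and the CD4-Cre status of the controls were not given in the sources used here. Should the controls have lacked Cre, an effect of the transgene and an effect of the lost gene cannot be told apart. Libraries are named WT1, WT2, KO1 and KO2 by group and replicate number, and values given in series below keep that order. They held 30408863 to 34080516 counts in genes.

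The targeted gene Uqcrfs1 had 61.4, 57.2, 15.6 and 18.6 CPM. It fell by 1.80 on the log2 scale (SE 0.09, adjusted p = 1.78e-04, edgeR quasi-likelihood test), so the libraries match their labels. Of the 9 DP markers, 8 stood between 379 and 6594 CPM in every library, and Ptcra between 31.5 and 37.3 CPM. Among the 9, 4 were lower and 5 higher in KO (median log2 change 0.005). For 3 of them, Cd8a, Cd8b1 and Cd3e, both KO libraries lay below both WT libraries, against 20.1% of all genes tested. At an unadjusted p under 0.05 by edgeR's quasi-likelihood test 2 were lower, against 4.01% of all genes tested. None of the erythroid markers exceeded 0.126 CPM. Summed cell cycle markers (13 genes) were highest in WT1, at 5679 CPM against 4859, 4955 and 5175 in the others, and all 13 were lower in KO (median log2 change -0.086, beside -0.049 for the import genes described below). The 7 tested myeloid markers summed to 25.04, 22.1, 22.3 and 44.6 CPM, with Cd74 at 14.3 CPM in KO2 against at most 3.20 in the others. Lyz2, Tyrobp, H2-Ab1 and Itgam were also highest in KO2, whereas Cd68 and Fcer1g were not. Of 9 markers of double-negative (DN) thymocytes, an earlier stage, 8 were higher in KO (median log2 change 0.28, highest in KO2). For 5 of the 9, Il2ra, Dtx1, Notch3, Notch1 and Cd44, both KO libraries lay above both WT libraries, against 20.4% of all genes tested. By edgeR's quasi-likelihood test 4 of the 9 were higher at an unadjusted p under 0.05, against 4.4% of all genes tested. Of 6 mature T cell markers, 4 were higher in KO (median 0.16). They summed to 268.1, 265.3, 275.3 and 289.8 CPM. The 4 tested B cell markers were also higher in KO (median 0.72) and summed to 28.7, 25.5, 29.4 and 27.5 CPM, most of it Cd79b. Ptcra is on both the DP and the DN list, and Il7r on both the DN and the mature T list. The part of all these markers in the results below was not tested.

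None of the 34 import genes passed the threshold between KO and WT (adjusted p under 0.05 by edgeR's quasi-likelihood test over all genes tested). Over all genes tested, 3 of 13281 passed, which is 0.0226%. Among the import genes the smallest adjusted p was 0.528, for Timm13. At an unadjusted p under 0.05 there were 5 import genes, Timm13, Timm8b, Timm17b, Dnajc15 and Tomm7, and all 5 were lower in KO, where 8.4% of all tested genes reached that level, 4.01% on the lower and 4.4% on the higher side. DESeq2 gave 0 import genes at an unadjusted p under 0.05. The authors' deposited table likewise marks 0 of the 34 as higher or lower, with 5 at an unadjusted p under 0.05 and a smallest adjusted p of 0.421.

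The values were small and mostly on the lower side. Of the 34 genes, 26 had a log2 change below 0 and 8 above 0, against 50.1% below 0 over all genes tested. The median log2 change of the 34 was -0.049, and that of all genes tested was -9.8e-05. Both KO libraries lay below both WT libraries for 15 import genes and above them for 0, where 20.1% of all genes tested lay below and 20.4% above (40.4% in either direction). Among the 10323 tested genes at least as abundant as the lowest import gene, 21.7% lay below, 51.7% had a change under 0 and 8.53% reached an unadjusted p under 0.05. In bulk RNA, fewer cells that express a gene and less RNA per cell cannot be told apart.

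Summed over the 34 genes, the import transcripts came to 1363, 1339, 1299 and 1290 CPM. Both KO sums were under both WT sums. For 25 of the 34 genes the change between groups was smaller than the larger of the gaps between replicates of a group. The other 9 were Timm13, Timm8b, Timm9, Timm17b, Dnajc15, Gfer, Mtx1, Mtx2 and Tomm22. The same count was not made over all genes tested, so the count of 25 is a description only. On the log2 scale the median gap was 0.074 within WT and 0.054 within KO, and the median size of the change was 0.052. Over all genes tested these medians were 0.115, 0.083 and 0.085.

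The median stayed below 0 with each of the 4 libraries left out, and its size moved with them. With each library left out in turn, 23 to 28 of the 34 genes were below 0. The median was -0.068 without WT1, the library with the highest cell cycle markers, and -0.046 without KO2, the library with the highest myeloid and DN markers. It was -0.087 without KO1, which is over 1.5 times the value from all libraries. With every left-out library 16 genes stayed below 0 and 0 stayed above 0, against 27.5% and 25.9% of all genes tested. Import genes with every KO library below every WT library numbered 21 without WT1 (35.2% of all genes tested), 22 without WT2 (38.4%), 22 without KO1 (33.4%) and 18 without KO2 (32.8%).

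**Figure D1:**
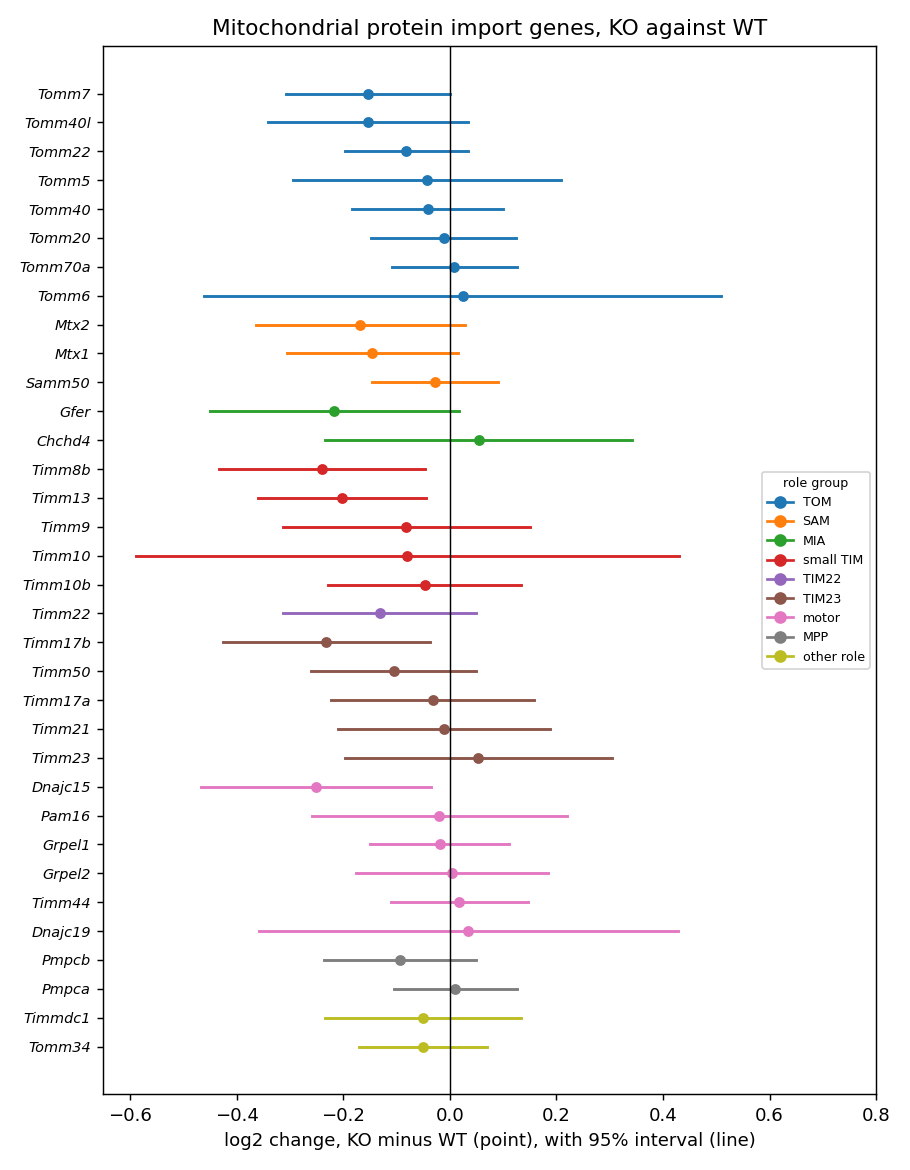
Log2 change of each import gene between KO and WT (horizontal axis, KO minus WT; points are estimates and lines 95% intervals), coloured by role group. The estimates run from -0.25 (Dnajc15) to 0.05 (Chchd4), 26 of 34 lie left of 0, and 29 of 34 intervals hold 0.

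The 95% intervals are given per gene, without adjustment for the number of genes. These intervals are not a detection limit of the test over all genes. They excluded a 1.5-fold change in either direction for 33 of the 34 genes. The exception was Timm10, counted 78 to 88 times per library, with an interval of -0.59 to 0.43. Uqcrfs1, by comparison, stood 3.47-fold lower in KO.

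In the outer membrane entry gate, 6 of 8 genes were below 0 and the median was -0.042. It was -0.0053 without WT1 and -0.082 without WT2. Tomm7, a small subunit that also stabilises the kinase PINK1 at the TOM complex, had 63.3 and 56.6 CPM in the WT libraries against 53.5 and 54.3 CPM in the KO libraries. The groups did not overlap, but WT2 lay closer to the KO libraries than to WT1. Its log2 change was -0.15 (SE 0.07, adjusted p = 0.594), with -0.074 without WT1 and -0.24 without WT2. Tomm22, the central receptor that organises the complex, had 102.2 and 99.1 CPM in the WT libraries against 95.11 and 95.03 CPM in the KO libraries, a change of -0.08 (SE 0.05).

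The other TOM receptors and the channel lay close to 0. Tomm70a, the receptor for carrier proteins with internal signals, stayed between 98.8 and 102.5 CPM, and the groups overlapped fully (log2 change 0.01, interval -0.11 to 0.13). Tomm20, the receptor for cleavable targeting signals, was at 51.8, 48.9, 49.7 and 50.2 CPM. Tomm40, the channel itself, was at 57.3, 56.6, 53.1 and 57.7 CPM, with KO2 above both WT libraries. Its relative Tomm40l was at 28.9, 27.6, 26.8 and 24.0 CPM, a change of -0.15 (SE 0.08) that was -0.079 without KO2 and -0.24 without KO1. In the mm10 annotation used here, 64.3% of the exon bases of Tomm40l overlap Nr1i3, so its counts are uncertain. The small subunits Tomm5 and Tomm6 had changes of -0.04 and 0.02. Tomm6 stood at 2.67 to 2.84 CPM, and 84.2% of its exon bases overlap other annotated genes.

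Genes of outer membrane assembly were all lower in KO without passing the test. Mtx1 and Mtx2, the metaxins of the SAM complex, had changes of -0.15 (SE 0.07) and -0.17 (SE 0.09). Mtx1 had 45.1 and 42.9 CPM in the WT libraries against 41.7 and 37.9 CPM in the KO libraries. Mtx2 had 20.7 and 22.6 CPM in the WT libraries against 19.5 and 19.0 CPM in the KO libraries. For both metaxins every KO library lay under every WT library, but the change of Mtx1 was -0.079 without KO2 and that of Mtx2 was -0.11 without WT2. The median of the 3 assembly genes was -0.15, and -0.079 without KO2. Samm50, the core of the complex that inserts barrel proteins, was at 82.8, 85.5, 82.7 and 82.4 CPM. Its groups also did not overlap, yet WT1 and KO1 were nearly equal. The change was -0.03 (SE 0.05), and -0.0099 without WT2. Of the exon bases of Mtx1, 30.1% overlap Thbs3 or Gm43737.

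The disulfide relay has 2 members, and they differed in direction. Gfer, the sulfhydryl oxidase that passes electrons from the relay toward cytochrome c, had 12.5 and 13.1 CPM in the WT libraries against 11.2 and 10.8 CPM in the KO libraries. The means were 12.8 ± 0.482 and 11.0 ± 0.236 CPM (SD, n = 2). The log2 change was -0.22 (SE 0.10, adjusted p = 0.618) and lay between -0.26 and -0.18 with each library left out. Of the 50-base words in coding transcripts of Gfer, 23.4% also occur in Dst, so its counts are uncertain. Deposited lengths, summed over the exons of all transcripts, differ from the annotation used here for Gfer (1775 against 7400 bases) and Chchd4 (1245 against 5326). Chchd4, the oxidoreductase known as MIA40 that forms disulfides in incoming proteins, was at 9.02, 7.84, 8.63 and 8.89 CPM. Both KO libraries lay between the WT libraries (change 0.05, interval -0.24 to 0.34).

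The small TIM chaperones, which escort carrier and other membrane proteins between the membranes, were all lower in KO, with 5 of 5 below 0 and a median of -0.082. The median ran from -0.15 (without WT1) to -0.046 (without KO2), and Timm10 and Timm10b turned above 0 without WT2 and without KO2, respectively. Timm8b and Timm13, which belong to the same kind of hexamer, had the values farthest from 0. Timm13 had 41.7 and 38.5 CPM in the WT libraries against 35.4 and 34.3 CPM in the KO libraries. Its means were 40.1 ± 2.27 and 34.9 ± 0.766 CPM (SD, n = 2). The log2 change was -0.20 (SE 0.07, unadjusted p = 0.0175, adjusted p = 0.528). Timm8b had 22.48 and 22.53 CPM in the WT libraries against 19.9 and 18.2 CPM in the KO libraries, a change of -0.24 (SE 0.09, adjusted p = 0.546). For both genes every KO library was under every WT library. Nkapd1 overlaps 15.6% of the exon bases of Timm8b, and Tmprss9 overlaps 3.14% of those of Timm13. The changes ran from -0.26 to -0.15 and from -0.31 to -0.18 with each library left out.

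The partners of the other hexamer, Timm9 and Timm10, lay nearer to 0, at -0.08 each (SE 0.10 and 0.22). Timm9 was at 12.4, 12.2, 11.9 and 11.3 CPM. Timm10 was at 2.47, 2.87, 2.58 and 2.46 CPM, with overlapping groups. Timm10b, which docks the chaperones at TIM22, had a change of -0.05, and only KO2, at 23.2 CPM, lay apart from the other libraries. Timm8a1, the other form of the Timm8 subunit, had 40, 23, 31 and 27 counts and is not in the authors' table. Its annotated transcript shares 41.0% of its 50-base words with a pseudogene, so its counts are uncertain.

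Upstream sequence is shown for 3 of the 5 genes at an unadjusted p under 0.05 and for Gfer, with Tomm20 and Timmdc1 as genes nearer to 0. They are 6 of 8 import genes found to have a single RefSeq start and no annotated exon in the preceding 60 bases (GRCm38.p6). Grpel2 and Timm21 were not assessed by this rule, so the 8 may not be all the import genes that meet it. Capitals mark matches to the ETS-type word CCGGAAG or the NRF1-type word, which is GCGCA and GCGC with any 1 base between them, both searched on either strand.
Timm13, chr10:80900970-80901029, minus strand: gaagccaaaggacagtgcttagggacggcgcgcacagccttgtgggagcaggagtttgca
Timm8b, chr9:50603841-50603900, plus strand: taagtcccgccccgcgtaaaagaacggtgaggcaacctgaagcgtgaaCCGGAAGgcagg
Timm17b, chrX:7899276-7899335, plus strand: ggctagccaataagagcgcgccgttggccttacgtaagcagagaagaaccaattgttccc
Gfer, chr17:24696157-24696216, minus strand: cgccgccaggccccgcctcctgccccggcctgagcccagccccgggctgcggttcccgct
Tomm20, chr8:126945922-126945981, minus strand: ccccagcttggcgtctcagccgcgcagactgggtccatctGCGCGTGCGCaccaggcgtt
Timmdc1, chr16:38522664-38522723, minus strand: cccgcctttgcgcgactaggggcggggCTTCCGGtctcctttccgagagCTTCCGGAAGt
The ETS-type word occurs 1 time in the window of Timm8b and 3 times in that of Timmdc1, where the matches nearest the start overlap on opposite strands. The NRF1-type word occurs in the window of Tomm20. The windows of Timm13, Timm17b and Gfer hold neither word, nor do those of Dnajc19 and Samm50, which are not printed. RefSeq promoters (250 bases before to 50 after the start) matched 30 of the 34 genes. The ETS-type word occurred in 13 of the 30 (43.3%), against 21.4% of 8622 tested protein-coding genes with a promoter in the same table. The NRF1-type word occurred in 4 of the 30 (13.3%), namely Chchd4, Pam16, Timm8b and Tomm20, against 12.4%. These words were chosen with the values known, and a match is a description of the letters only.

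The carrier translocase is represented by its channel Timm22, which inserts metabolite carriers into the inner membrane. It had 27.0 and 29.8 CPM in the WT libraries against 26.0 and 25.9 CPM in the KO libraries, a log2 change of -0.13 (SE 0.08, adjusted p = 0.675). WT2 was the high library, and WT1 lay close to the KO pair. The change was -0.063 without WT2 and -0.21 without WT1. Its partner subunit Timm29 is listed in the authors' table as 1810026J23Rik and so falls outside the rule. It stood at 72.1, 71.0, 68.0 and 69.6 CPM.

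Among the TIM23 genes, 4 of 5 were below 0 with a median of -0.032. That median has no stable direction: it was 0.024 without WT2, -0.093 without WT1 and -0.11 without KO1. Timm17b, 1 of 2 forms of a channel subunit, had 30.9 and 27.1 CPM in the WT libraries against 24.5 and 24.9 CPM in the KO libraries. The means were 29.0 ± 2.70 and 24.7 ± 0.266 CPM (SD, n = 2). The log2 change was -0.23 (SE 0.09, adjusted p = 0.547). WT1 was the highest library, and the change was -0.14 without it. Timm17a, the other form, was at 27.4, 29.7, 29.3 and 26.5 CPM, with overlapping groups and a change of -0.03 (SE 0.08).

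Timm50, the receptor that hands proteins from TOM to the channel, had 46.8 and 42.7 CPM in the WT libraries against 40.9 and 42.3 CPM in the KO libraries (log2 change -0.11, SE 0.07). WT2 and KO2 were nearly equal, and the change was -0.041 without WT1 and -0.17 without WT2. Timm21, which links TIM23 to the respiratory chain, had a change of -0.01, with 34.8, 38.9, 39.1 and 34.04 CPM. Timm23, the channel protein, was lowest in KO1 at 11.6 CPM and highest in KO2 at 13.3 CPM, with the WT libraries between them, a change of 0.05 (SE 0.11). Of the 50-base words in its coding transcripts, 83.9% also occur in transcripts of other genes, 6 of them pseudogenes, so its counts are uncertain.

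**Figure D2:**
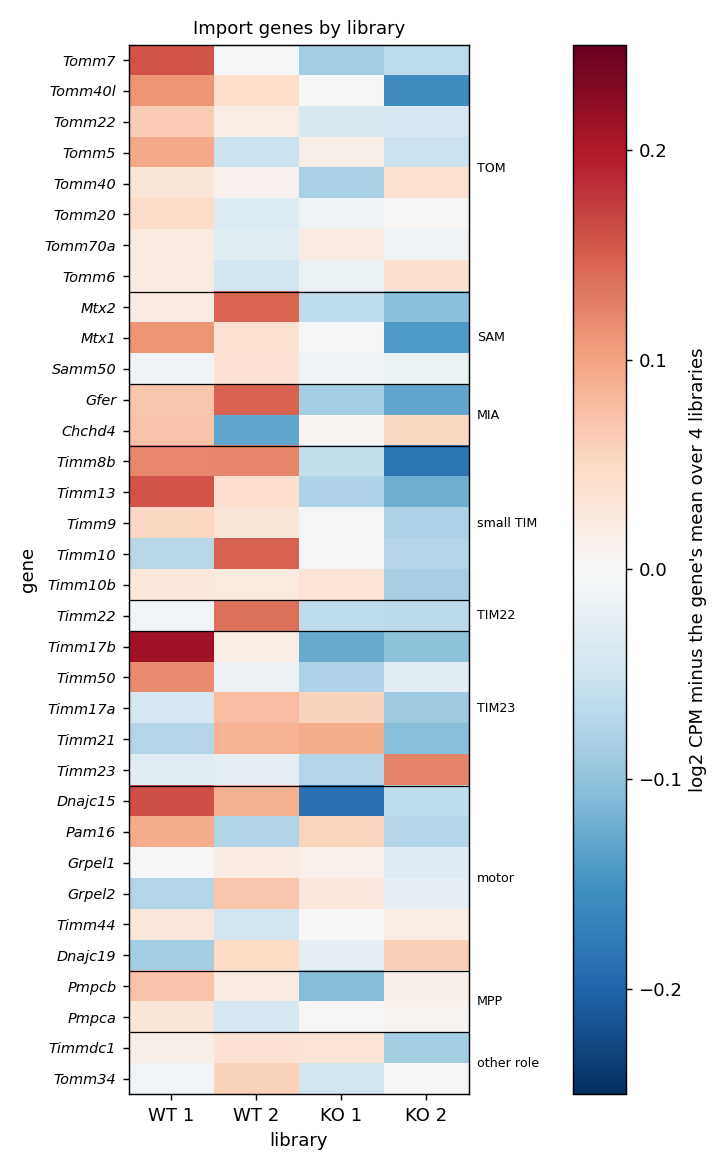
Level of each import gene in each library, as log2 CPM minus the mean of that gene over the 4 libraries (colour; rows are genes grouped by role, columns are libraries). Red cells are more frequent in the WT columns and blue cells in the KO columns, and the motor genes other than Dnajc15 show no such order.

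In the import motor, 3 genes were below and 3 above 0, with a median of -0.0075. It was 0.0046 without KO2, -0.035 without WT1 and -0.034 without KO1. Dnajc15, a J-domain protein that stimulates the mitochondrial Hsp70, had 17.9 and 17.0 CPM in the WT libraries against 14.1 and 15.3 CPM in the KO libraries. Its log2 change of -0.25 was the lowest of the 34 (SE 0.10, unadjusted p = 0.0278, adjusted p = 0.547). Every KO library lay under every WT library, and the change ran from -0.31 to -0.19 with each library left out. Its deposited length is 648 bases against 7286 in the annotation used here, both summed over the exons of all transcripts. The gene model counted may thus differ. Other genes differed in this length too, among them Dnajc19 (1433 against 5823), Timm13 (1225 against 2673), Timm21 (1315 against 11411) and Samm50 (1673 against 9625).

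Dnajc19, the related J-domain protein, was at 4.05, 4.45, 4.22 and 4.48 CPM, a change of 0.03 (SE 0.17). Grpel1 and Grpel2, the nucleotide exchange factors of the mitochondrial Hsp70, had changes of -0.02 (SE 0.06) and 0.004 (SE 0.08). Grpel1 stood at 53.5, 54.3, 54.0 and 52.4 CPM and Grpel2 at 26.9, 29.7, 28.9 and 27.9 CPM. Timm44, which anchors the Hsp70 at the channel, was at 64.9, 61.6, 63.6 and 64.5 CPM (change 0.02, interval -0.11 to 0.15). Pam16, which restrains the J-domain proteins, was at 15.5, 13.8, 15.1 and 13.8 CPM, and replicates of a group differed more than the groups did. For Pam16, 88.7% of the 50-base words in coding transcripts occur in other annotated transcripts.

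The processing peptidase has a structural and a catalytic subunit. Pmpca, the alpha subunit, had 123.1 and 117.0 CPM in the WT libraries against 120.7 and 121.3 CPM in the KO libraries, a log2 change of 0.01 (interval -0.11 to 0.13), with both KO libraries between the WT libraries. Pmpcb, the catalytic beta subunit, had 62.9 and 60.9 CPM in the WT libraries against 55.6 and 60.5 CPM in the KO libraries, a change of -0.09 (SE 0.06). KO2 was just under the WT libraries and KO1 was lower, and the change was -0.035 without KO1 and -0.16 without KO2. Timmdc1 and Tomm34 carry the same prefixes and act elsewhere, in complex I assembly and as a cytosolic co-chaperone. Timmdc1 was at 24.04, 24.4, 24.35 and 22.4 CPM and Tomm34 at 96.7, 101.1, 94.2 and 97.0 CPM. Their changes were -0.05 each, and the groups overlapped in both.

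**Figure D3:**
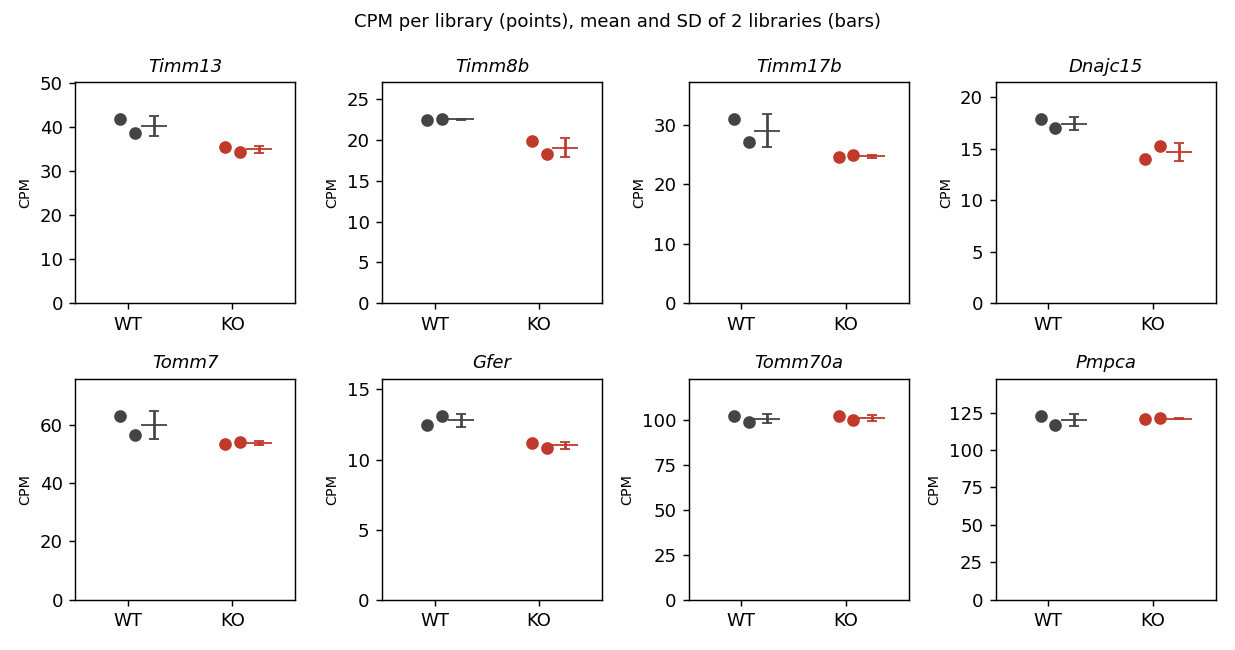
CPM of 8 import genes in each library (points; WT grey, KO red; vertical axes start at 0) with the mean and SD of 2 libraries per group (bars). Timm13, Timm8b, Timm17b, Dnajc15, Tomm7 and Gfer have both KO points under both WT points, and Tomm70a and Pmpca overlap.

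Ratios between related or partner genes within a library do not depend on how libraries are scaled. With 2 libraries against 2, a two-sided exact permutation test cannot go below p = 0.333, so ratios are given without a test. Without any difference between groups, a pair would lack overlap with that same probability of 0.333. Counts of Dnajc15 per count of Dnajc19 were 4.41, 3.82, 3.33 and 3.42, so the groups did not overlap. Chchd4 per count of Gfer was 0.724 and 0.597 in WT and 0.772 and 0.820 in KO, again without overlap. Timm17a per count of Timm17b was 0.886 and 1.097 in WT and 1.196 and 1.063 in KO, with WT1 alone on the low side. Pmpca per count of Pmpcb was 1.96 and 1.92 in WT and 2.17 and 2.01 in KO, also without overlap. Timm8a1 per count of Timm8b was 0.0542, 0.0336, 0.0458 and 0.0467, from few counts of Timm8a1. Grpel1 to Grpel2, Mtx1 to Mtx2, Timm13 to Timm8b, Timm9 to Timm10 and Tomm20 to Tomm70a overlapped between groups. Tomm40 to Tomm40l was 1.98, 2.05, 1.98 and 2.40, also with overlap.

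**Figure D4:**
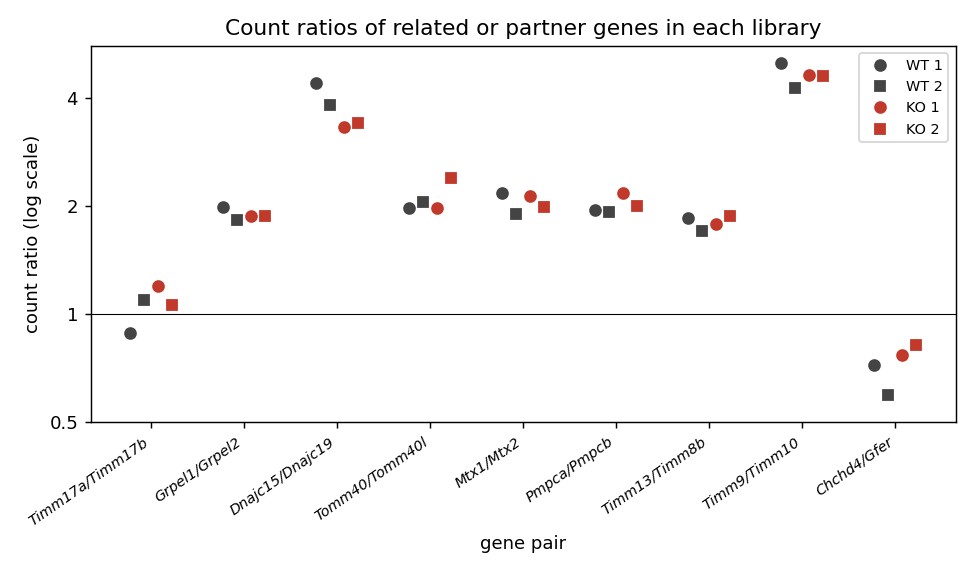
Ratio of raw counts of gene pairs in each library (log axis; WT grey, KO red; circles replicate 1, squares replicate 2). Dnajc15/Dnajc19 lies lower and Chchd4/Gfer and Pmpca/Pmpcb higher in both KO libraries, and the other pairs drawn overlap between groups. Timm8a1/Timm8b and Tomm20/Tomm70a, which also overlap, are not drawn.

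Levels can be compared between genes only per length. For 16 of the 34 genes the deposited length agreed within 1% with the annotation used here, which gives a non-redundant exon length. Per kilobase of exon, Tomm7 had the highest level of these, at 50.6 CPM per kb, followed by Tomm34 at 32.0 and Pmpca at 28.2. Tomm6 (2.44), Timm10 (3.18) and Timm17a (3.58) had the lowest. Of the exon bases of Pmpca 20.4% overlap Inpp5e, and 84.2% of those of Tomm6 overlap other genes, so these values are uncertain. On that scale Timm17b stood at 10.5 CPM per kb, above Timm17a. Their mean CPM were similar (26.9 and 28.2), and their exon lengths were 2557 and 7893 bases. The exon lengths include those of non-coding isoforms, which lowers the value of genes that have them.

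A list of 20 further genes served for comparison. It holds genes that act with the import machinery or on imported proteins, and the complex III genes Uqcrc1, Uqcrc2 and Bcs1l. Of the 20, 13 were below and 7 above 0, with a median log2 change of -0.040 that was -0.0082 without WT1. Both KO libraries lay below both WT libraries for 4 and above them for 4, against 20.1% and 20.4% of all genes tested. By edgeR 0 passed the test over all genes (1 at an unadjusted p under 0.05). Hspd1, the chaperonin that folds imported proteins, had 106.8 and 108.6 CPM in the WT libraries against 112.7 and 128.0 CPM in the KO libraries, a change of 0.16 (SE 0.07, adjusted p = 0.571) that was 0.06 without KO2. Pitrm1, which degrades cleaved targeting peptides, had a change of 0.09 (SE 0.05), and Dnlz, an escort of the mitochondrial Hsp70, of -0.10 (SE 0.07). Immp2l, a peptidase of the inner membrane, had a change of 0.61 (SE 0.39) at 0.457 to 0.851 CPM. Hspa9, the Hsp70 of the motor, was at 146.1, 137.0, 137.4 and 151.1 CPM. Uqcrc1 and Uqcrc2, the complex III subunits related to the processing peptidase, had changes of -0.06 and -0.07.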

How the data were processed

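Per the submitters' processing notes, the authors trimmed reads with Trimmomatic 0.33, aligned them with STAR 2.5.2 to mm10 and counted them with HTSeq. The counting mode, strand setting and annotation version were not given in the sources used here. Counts of overlapping or near-identical genes are thus uncertain. Raw counts per gene were deposited, identical in the series table and the library files (0 differing cells). The authors' edgeR table gives CPM scaled by library total, log2 changes, p-values and a likelihood ratio score, per the file headers.

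Genes were filtered by filterByExpr at a minimum count of 10 and a minimum total of 15. They were tested in R 4.3.3 with edgeR 4.0.16, by a robust quasi-likelihood fit on TMM-scaled counts in which group was the only term. P-values were Benjamini-Hochberg adjusted over 13281 genes, with a threshold of 0.05. CPM values use TMM-scaled totals, except for 1810026J23Rik and single marker genes, which use library totals. Standard errors are the absolute log2 change over the square root of F, and intervals use the fit's degrees of freedom. Each library is a mouse, and depth was 30408863 to 34080516 counts. The fit was tested on simulated counts.

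Exon overlap, shared 50-base words and lengths came from GENCODE M21, and promoters from RefSeq (GRCm38.p6). The rule for values per library named, in each role group, the gene with the highest level per kb and up to 3 with the smallest p, plus related pairs. Alternatives were DESeq2 1.42.0, edgeR's exact test, other scalings and filters, a replicate block and leaving out each library. The members and lists were chosen with earlier results of these data known.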

Additional observations from a re-analysis of the deposited data

How the results depend on the processing

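The number of import genes called was 0 under each alternative run. The number of genes called over all genes tested (3) became 22 with DESeq2, 81 with edgeR's exact test and 191 with no filter on low counts, and 41 to 365 with each library left out (41 without WT1, 365 without WT2, 53 without KO1, 44 without KO2). Those fits take the spread of a lone library from the other group. The cause was not tested. Import genes at an unadjusted p under 0.05 (5) came to 0 with DESeq2 and to 2 to 8 with each library left out. The median log2 change of the import genes lay between -0.053 and -0.047 under the other tests, scalings and filters, and between -0.087 and -0.046 with each library left out. The sign was the same under all scalings for each of the 34 genes. The labels give replicate numbers and state no pairing. Same-numbered libraries deviated together with a correlation of 0.0912 across genes, which cannot settle whether the mice were paired. With the replicate block 27 genes were called, 0 of them import genes, with 4 import genes at an unadjusted p under 0.05 and a median of -0.049.

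With single libraries left out, the direction turned for 18 genes, none of them called: Timmdc1 (-0.11 to 0.0066), Timm44 (-0.023 to 0.052), Tomm40 (-0.10 to 0.015), Timm23 (-0.049 to 0.15), Pam16 (-0.10 to 0.064), Tomm70a (-0.022 to 0.031), Grpel2 (-0.070 to 0.072), Timm21 (-0.12 to 0.083), Pmpca (-0.030 to 0.044), Timm10 (-0.19 to 0.026), Dnajc19 (-0.036 to 0.10), Grpel1 (-0.045 to 0.0021), Tomm6 (-0.015 to 0.056), Chchd4 (-0.047 to 0.16), Timm17a (-0.11 to 0.038), Tomm5 (-0.12 to 0.029), Timm10b (-0.11 to 0.0075) and Tomm20 (-0.056 to 0.026). Grpel2 was also at -0.00025 with no filter on low counts. The count of import genes without overlap between groups, with each library left out or with library totals only (15), was an alternative chosen after seeing the data.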

Other observations

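Of the 34 import genes, 8 start within 1000 bases of a protein-coding gene on the opposite strand that runs the other way, which is 23.5%, against 11.6% of 10487 protein-coding genes in the authors' table. Timm8b and Sdhd, a membrane anchor subunit of complex II, start 98 bases apart. Sdhd had 89.4, 84.3, 81.6 and 82.1 CPM in WT1, WT2, KO1 and KO2, a log2 change of -0.08 (SE 0.05) beside -0.24 for Timm8b. Timm17b and Pqbp1 start 88 bases apart, with changes of -0.23 and -0.04 (SE 0.07 for Pqbp1). Pmpca and Entr1 start 23 bases apart, with changes of 0.01 and 0.08 (SE 0.05 for Entr1). Timm23 and Parg start 51 bases apart, with changes of 0.05 and -0.01. None of these genes passed the test by edgeR over all genes.

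Tomm20l, a relative of Tomm20, had 0 counts in every library, and Timm8a2 had 3 to 11 counts. Both carry the prefixes in the annotation and are not in the authors' table.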
